A study of Mus musculus with 26 samples.

Results

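The joins described here are deletional joins between a bait region and Sγ1 whose prey sequence was marked for low mapping quality, that is, could be placed at several coordinates about equally well. They were chosen as the junctions on chromosome 12 from 114558000 to 114587999 (mm9) with prey in the deletional orientation and the mapping mark. There were 333509 such joins among 777800 junctions of 26 libraries. They made up 90.1% of the 370343 deletional joins in that interval, the remaining 36834 being unmarked. The deposited tables hold duplicates on the marked side only, and without them the share was 85.9% of 262079 joins. Splenic mature CD43- B cells from young adult mice of 1 inbred background, either WT or homozygous for the A150 mutation, were stimulated, for 96 h by the labels (the study's text gives both this time and a slightly longer one). The genotype was taken from the genotype label, which the titles match, whereas the target locus label follows the bait and not the mouse. The arm called anti-CD40+IL4 received these 2 agents, and the arm called anti-CD40+TGF-β received anti-CD40 with IL4 at a lower dose, IL5, BLyS and TGF-β, so both arms held IL4. In A150 mice the Iγ3 switch promoter is replaced by a cassette holding a VH promoter, a rearranged VDJ exon and the Eµ enhancer, so that B cell development runs on IgG3, which limits these cells as a model of WT cells. Junctions were read by CSR-HTGTS, which amplifies genomic DNA from a primer in a bait region (upstream of Sµ or upstream of Sγ3) and sequences into the partner, called prey. There were 3 libraries per combination of genotype, bait and stimulation, except 4 for the A150 Sµ bait with anti-CD40+IL4 and 4 for the A150 Sγ3 bait with anti-CD40+TGF-β. The study counts independent mice, but the labels tie no library to a mouse, so p-values here measure the spread between libraries, which may be technical.

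Class switch recombination replaces the Cµ constant region by a downstream one. Activation-induced cytidine deaminase (AID) deaminates cytosines in transcribed S regions, preferring the C of AGCT and related motifs, and the resulting breaks in a donor and an acceptor S region are joined with loss of the DNA between them. Joins without shared bases are typical of classical end joining, and longer shared stretches (microhomology, MH) are associated with alternative end joining. Sγ1, the acceptor for IgG1, is a long array of tandem repeats.

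Most of these joins began in a copy of a tandem repeat. The sequence of Sγ1 was rebuilt from 188622 mismatch-free alignments on the minus strand of mm9, which is the coding strand of IgH. Joins spanned chr12:114568835-114577174, a window of 8340 bp of which 205 bp could not be rebuilt. Its most frequent stretch of 49 bases is printed first, with the AGCT in capitals. A contiguous run of 3 copies at chr12:114576872-114577018 (mm9, minus strand) follows, to show how little neighbouring copies differ.
Repeat unit: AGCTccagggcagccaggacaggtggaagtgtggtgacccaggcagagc
Tandem copies: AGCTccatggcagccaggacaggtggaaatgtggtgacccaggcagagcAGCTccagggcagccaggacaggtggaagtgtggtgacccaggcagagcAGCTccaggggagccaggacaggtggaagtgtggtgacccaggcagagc

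The window held 143 copies with at least 35 of 49 bases matching, of which 20 were identical to the unit and the median identity was 93.9%. Copies covered 84.0% of the window, and 91.7% of the marked joins began in a copy. AGCT occurred 156 times in the window, and 134 of the 143 copies had it at unit position 1. Stretches of 100 bases occurred more than once in the window in 82.1% of cases, and stretches of 200 bases in 74.8%. The reads showed the ambiguity directly. Among reads of identical sequence found more than once in a library, 66.2% to 78.8% were placed at more than 1 coordinate in the 20 libraries with over 100 joins. A coordinate within Sγ1 is therefore 1 of several possible placements. The position within the unit was counted alike in every copy, though the overlap, and with it this position, can change with the copy.

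The joins below show what the sequences look like. The overlap of a join is the number of read bases that both the bait and the prey alignment cover. For each bait, the join found in most libraries is given for an insertion, a direct join, an overlap of 1 to 3 bases and an overlap of over 3, with 25 bases on each side. Capitals mark inserted or overlapping bases as the alignments place them, or the first prey base of a direct join.
Sµ bait, insertion of 1 bp: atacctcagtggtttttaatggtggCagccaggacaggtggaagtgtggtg
Sµ bait, direct: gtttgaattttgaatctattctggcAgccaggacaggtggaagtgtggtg
Sµ bait, overlap of 3 bp: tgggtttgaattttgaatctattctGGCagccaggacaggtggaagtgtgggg
Sµ bait, overlap of 4 bp: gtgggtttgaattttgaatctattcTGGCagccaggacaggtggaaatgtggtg
Sγ3 bait, insertion of 1 bp: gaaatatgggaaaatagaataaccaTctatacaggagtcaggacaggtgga
Sγ3 bait, direct: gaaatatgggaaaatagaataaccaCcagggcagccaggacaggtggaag
Sγ3 bait, overlap of 3 bp: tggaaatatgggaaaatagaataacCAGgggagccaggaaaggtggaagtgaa
Sγ3 bait, overlap of 4 bp: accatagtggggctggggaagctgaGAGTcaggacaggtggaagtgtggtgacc

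The overlapping bases of the 4 joins that have them are identical in bait and prey. These 4 joins were found in 7 libraries each and both direct joins in 5, whereas the insertions were found in 4 (Sµ bait) and 5 (Sγ3 bait). The class can depend on the copy at which the prey was placed. The Sµ direct join and both Sµ overlaps have the same bait end, 114668865, with preys placed at different copies. The C of the Sµ insertion and the GG before it also precede AGCC in the printed unit, but that prey was placed outside any copy. The T of the Sγ3 insertion stands where bait and prey both have G. Whether these bases were added was not tested.

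Depth differed between groups. Marked joins per library ranged from 3224 to 4972 for WT with the Sµ bait and anti-CD40+TGF-β, and from 35665 to 49508 for A150 with the Sγ3 bait and anti-CD40+IL4. In WT, Sγ3 bait libraries counted 14, 11 and 37 joins under anti-CD40+IL4, against 7, 4 and 2 under anti-CD40+TGF-β, and these 6 entered no test. All anti-CD40+IL4 libraries were sequenced in a run of their own and all anti-CD40+TGF-β libraries in another, so stimulation and run cannot be told apart. All 380580 marked junctions of the series but 1 lay in Sγ1, all of them carried the same region tag, and no other junction did. No unmarked junction carried a duplicate mark or was a later junction of a read, so both kinds of join may have passed different filters, which limits what the share with the mark means.

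Direct joins, as classed at the copy where the prey was placed, were spread unevenly over the unit. The part of ambiguous placement in this was not tested. In the A150 Sγ3 libraries the first prey base was unit position 4, the T of AGCT, in 10.2%, 11.02% and 9.71% of direct joins under anti-CD40+IL4, while under anti-CD40+TGF-β these were 9.87%, 10.8%, 9.66% and 9.38%. The A150 Sµ libraries gave 7.73%, 7.23%, 6.35% and 6.64%, and 7.11%, 6.58% and 6.59%, respectively. All 14 libraries lay above the 2.04% that equal use of the 49 positions would give, and the baits did not overlap. The difference between baits was 3.33 percentage points under anti-CD40+IL4 and 3.17 under anti-CD40+TGF-β (exact permutation test over 35 splits, p = 0.0286 in each, the smallest this design allows, and adjusted p = 0.114 and 0.0571 over 4 unit measures), so neither passed 0.05 after adjustment. Over all marked joins, overlaps and insertions included, the order of the baits was reversed, with 6.87% to 7.40% of joins at position 4 for Sγ3 against 7.75% to 8.76% for Sµ under anti-CD40+IL4, and 7.07% to 8.11% against 8.23% to 9.53% under anti-CD40+TGF-β (differences of -1.11 and -1.48 percentage points, exact permutation p = 0.0571 in each). Positions 14 and 15, the C that ends AGC and the C after it, were the other maximum among direct joins, and position 15 was the most used position in 12 of 13 Sµ libraries, whereas position 4 was in 5 of 7 A150 Sγ3 libraries and tied with 15 in 1 more. Together positions 14 and 15 held 15.5% ± 1.04 (SD, n = 3) and 15.9% ± 0.375 (n = 4) for the Sγ3 bait and 12.7% ± 2.20 (n = 4) and 12.6% ± 1.32 (n = 3) for the Sµ bait. Positions 25 to 38 drew 9.996% to 13.01% of direct joins in the A150 groups, against 28.6% under equal use. WT libraries with the Sµ bait had 13.6% ± 1.81 and 14.1% ± 1.78 at positions 14 and 15 (n = 3 each). At position 4 they had 6.97% ± 0.869 and 6.001% ± 1.42, and overlapped the A150 libraries (exact permutation test within stimulation, 700 arrangements, p = 0.483).

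**Figure D1:**
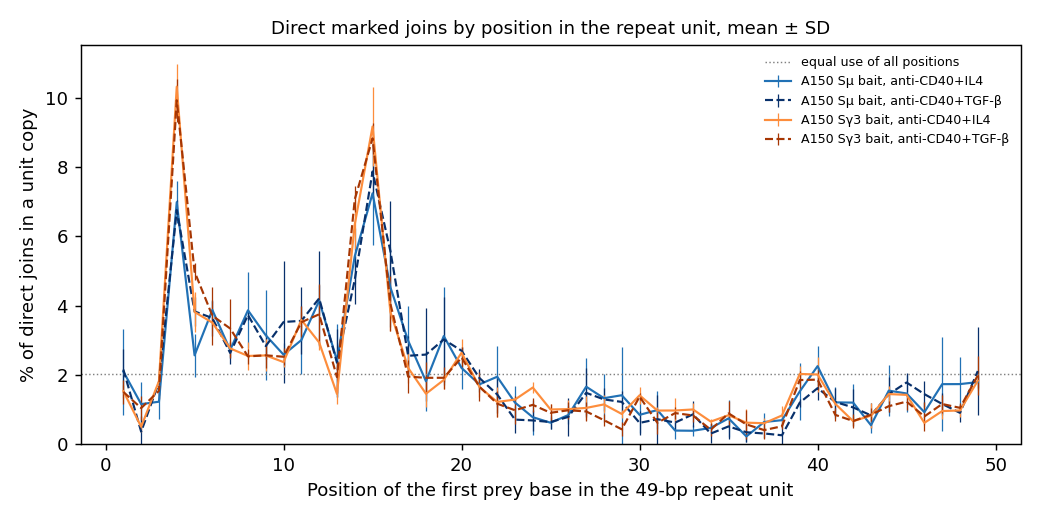
Percentage of direct marked joins (y axis) by the position in the 49-bp unit at which the prey begins (x axis), as the mean over libraries with SD bars for the 4 A150 groups. Position 4 reaches 10.3% and 9.93% with the Sγ3 bait against 6.99% and 6.76% with the Sµ bait, and the dotted line is equal use.

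A prey that begins at base 2, 3 or 4 of an AGCT, at the copy where it was placed, was counted as having its break inside that motif. Such joins made up 12.04% ± 0.925 (n = 3) and 12.3% ± 0.754 (n = 4) of direct joins with the A150 Sγ3 bait (anti-CD40+IL4 first, then anti-CD40+TGF-β), and 9.04% ± 1.57 (n = 4) and 8.90% ± 0.559 (n = 3) with the A150 Sµ bait. Positions inside AGCT are 5.75% of the rebuilt window. The baits did not overlap in either stimulation, with differences of 2.999 percentage points (exact permutation test, p = 0.0571) and 3.40 (p = 0.0286), and adjusted p = 0.0825 and 0.0371 over 13 measures. These 2 measures and the unit were chosen after seeing the data. Of the 5 single positions with the highest mean share over 20 libraries, 4 began at the T of an AGCT, yet the highest, 114570993, held 0.125% ± 0.0875 (n = 20) of joins.

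Longer overlaps were more frequent with the Sγ3 bait. Joins with an overlap of over 3 bases made up 10.4%, 10.5% and 10.3% of marked joins in the A150 Sγ3 libraries for anti-CD40+IL4, and 4.61%, 3.86%, 4.52% and 4.55% in the A150 Sµ libraries. For anti-CD40+TGF-β the A150 Sγ3 libraries gave 10.6%, 10.9%, 12.03% and 10.6%, and the A150 Sµ libraries 4.73%, 4.37% and 5.32%. All Sγ3 libraries were higher than all Sµ libraries, by 6.01 and 6.22 percentage points (exact permutation test, p = 0.0286 in each, adjusted p = 0.0619 and 0.0371). After adjustment the anti-CD40+TGF-β difference passed 0.05 and the anti-CD40+IL4 difference did not, and this held for each bait difference below with these adjusted p-values. WT libraries with the Sµ bait lay at 3.21%, 4.10% and 4.25%, and at 5.49%, 5.51% and 5.09%. The difference of A150 from WT within stimulation was 0.531 percentage points under anti-CD40+IL4 (exact permutation p = 0.143) and -0.555 under anti-CD40+TGF-β (exact permutation p = 0.2), opposite in sign, and averaged to -0.01 (exact permutation test, p = 0.974). An overlap need not be homology, since an alignment can run on through a mismatch. Where both rebuilt sequences were known, the overlapping bases of bait and prey were identical in 99.8% (Sµ) and 99.7% (Sγ3) of overlaps of 1 to 3 bases, in 80.5% and 78.8% of those of 4 to 9, and in 10 of 554 Sγ3 and 0 of 57 Sµ overlaps of over 10. Overlap length and identity were judged at the copy where the prey was placed, and the part of ambiguous placement in them was not tested. With identical overlaps alone, over 3 bases were found in 7.07% to 7.53% of joins (Sγ3) against 2.45% to 3.25% (Sµ) under anti-CD40+IL4. Under anti-CD40+TGF-β the A150 ranges were 7.17% to 8.58% and 2.70% to 3.89%, and the differences were 4.65 and 4.603 percentage points (exact permutation p = 0.0286 in each, chosen after seeing the data).

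Direct joins and insertions stood the other way. Direct joins were 24.6% ± 0.340 (n = 3) and 23.6% ± 0.625 (n = 4) with the A150 Sγ3 bait, and 29.4% ± 0.452 (n = 4) and 28.1% ± 1.27 (n = 3) with the A150 Sµ bait (differences of -4.80 and -4.51 percentage points, exact permutation p = 0.0286 in each, adjusted p = 0.0619 and 0.0371). Insertions were 19.9% ± 0.742 (n = 3) and 20.9% ± 0.691 (n = 4) against 24.7% ± 1.23 (n = 4) and 25.5% ± 0.208 (n = 3) (exact permutation p = 0.0286 in each, adjusted p = 0.0619 and 0.0371). Single bases classed as inserted were T or A in 68.0% of Sµ bait joins and 66.7% of Sγ3 bait joins.

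The leading overlapping sequences of each bait are given as counts, with no test. Among Sγ3 bait joins with overlaps of 4 to 9 bases, CCAG was the most frequent with 1945 of 20704, followed by GGAG with 1415, and among Sµ bait joins AGGA led with 324 of 5297. An overlap of 10 bp stood out with the Sγ3 bait, at 0.443% ± 0.0482 (n = 3) and 0.485% ± 0.0665 (n = 4), against 0.0837% ± 0.0319 and 0.109% ± 0.0164 at 9 bp, and was found for the Sµ bait in 46 joins. Of the 959 such Sγ3 bait joins with a regular bait alignment, 748 ended at the bait position 114606275. There the bait holds the first sequence below, and the prey held the second in 457 joins and the same bases as the bait in 209. Most of these overlaps therefore contain a mismatch between bait and prey.
Bait bases: CAGCTACAGG
Prey bases: CAGCTCCAGG

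**Figure D2:**
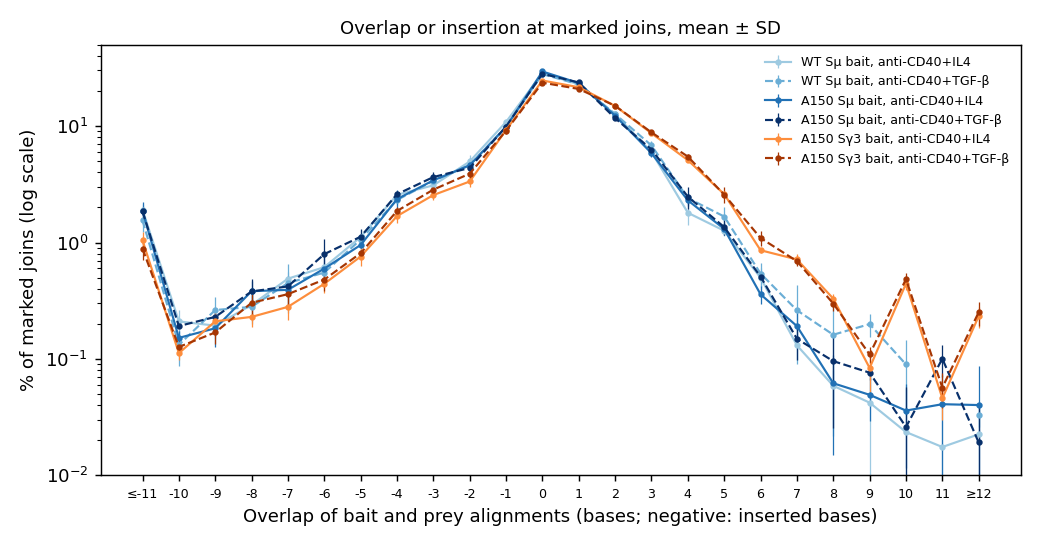
Percentage of marked joins (y axis, log scale) by the overlap of bait and prey alignments in bases, with insertions as negative numbers (x axis), as the mean over libraries with SD bars for 6 groups. The 2 Sγ3 bait groups lie above the 4 Sµ bait groups from 2 overlapping bases to 8, and have a further maximum of 0.443% and 0.485% at 10. SD bars that reach 0 run to the foot of the axis, a mean of 0 is not drawn, and the outermost points pool all longer insertions and overlaps.

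Bait breaks were spread over many positions, and the most used held few of them. With the Sµ bait the last bait base was 114668809 in 5.16% ± 0.636 of joins (n = 13), and with the Sγ3 bait it was 114606283 in 4.36% ± 0.545 (n = 7). The Sγ3 position lies inside an AGCT and that of Sµ does not, as the 15 bases before and after show, with the last bait base in capitals.
Sµ bait, break: ggtttttaatggtgGgtttaatatagaagg
Sγ3 bait, break: aaaatagaataaccAgctacaggagatcta

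The median number of aligned bait bases was 86, 90, 83 and 96 in the A150 Sµ libraries under anti-CD40+IL4. Under anti-CD40+TGF-β it was 90, 90 and 86, so the stimulations overlapped (exact permutation p = 1). The A150 Sγ3 libraries had 86, 80 and 78, and 80, 76, 79 and 80 (exact permutation p = 0.457). WT Sµ libraries had 86, 86 and 87 under anti-CD40+IL4, whereas 94, 96 and 92 were found under anti-CD40+TGF-β, which did not overlap (exact permutation p = 0.1, the smallest that 3 against 3 allows). The A150-WT difference was 2.42 bases under anti-CD40+IL4 (exact permutation p = 0.686) and -5.33 under anti-CD40+TGF-β, where the groups did not overlap (exact permutation p = 0.1, the smallest possible), and -1.46 over both (exact permutation p = 0.526). Baits were not compared with each other, since they lie in different regions. Among direct joins, the last bait base lay inside an AGCT in 10.7% to 13.4% of joins in the 7 A150 Sγ3 libraries and in 1.14% to 2.95% in the 13 Sµ libraries. From the shortest bait alignment found, 25 bases with either bait, to 200 bases, such positions are 6.82% of the Sγ3 bait region and 1.70% of the Sµ bait region.

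**Figure D3:**
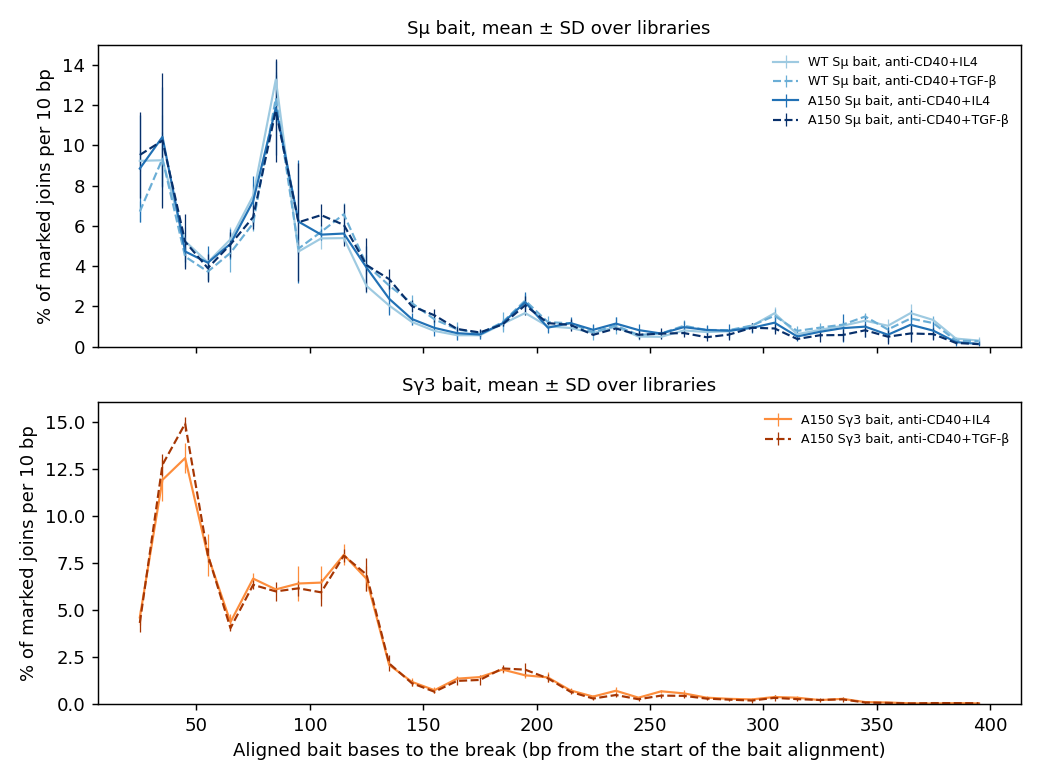
Percentage of marked joins (y axis) by the number of aligned bait bases in bins of 10 (x axis), as the mean over libraries with SD bars, for the Sµ bait (upper) and Sγ3 bait (lower). Group medians lie at 86.3 to 94.0 bases with the Sµ bait and at 78.8 and 81.3 with the Sγ3 bait, and joins beyond 400 bases are not drawn.

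Along Sγ1, the joins filled a plateau of 6 kb. The bin from 114572000 to 114572999 held 16.9% ± 0.670 of joins, the bin from 114575000 to 114575999 held 16.7% ± 0.951 and the bin from 114574000 to 114574999 held 16.3% ± 0.487 (n = 20). The median distance from the upstream bound of the interval was 14272, 14133 and 14126 bp in the A150 Sγ3 libraries for anti-CD40+IL4, and 14414, 14437, 14370 and 14408 bp in the A150 Sµ libraries. For anti-CD40+TGF-β it was 14031, 13967, 13894 and 13982 bp with the Sγ3 bait, and 14211, 14314 and 14363 bp with the Sµ bait. Every A150 Sγ3 library had its median nearer the upstream bound than every A150 Sµ library of the same stimulation, with differences of -230.2 and -328 bp, Sγ3 minus Sµ (exact permutation p = 0.0286 in each, adjusted p = 0.0619 and 0.0371). In A150 cells, anti-CD40+TGF-β libraries were nearer that bound than anti-CD40+IL4 libraries, with differences of -111 bp for the Sµ bait (exact permutation p = 0.0286, adjusted p = 0.267) and -209 bp for the Sγ3 bait (p = 0.0286, adjusted p = 0.0800), and with groups that did not overlap, but neither passed after adjustment. Without A150 Sµ library 1 of anti-CD40+TGF-β the Sµ difference was -68.8 bp (exact permutation p = 0.0667). In WT cells the Sµ libraries of the stimulations overlapped, with a difference of -61.3 bp (exact permutation p = 0.3). WT and A150 Sµ libraries overlapped (exact permutation p = 0.137). The part that ambiguous placement has in these shifts was not tested.

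Distinct positions were also counted at an equal number of marked joins, duplicates included. At 3224 joins per library, 2241 ± 0.561 (n = 3) and 2159 ± 8.01 (n = 4) distinct positions were expected for the A150 Sγ3 bait, and 2062 ± 77.9 (n = 4) and 2058 ± 43.4 (n = 3) for the A150 Sµ bait (exact permutation p = 0.0571 and 0.0286, adjusted p = 0.0825 and 0.0371). With duplicates left out, at 2786 joins per library, the differences were 8.97 positions (exact permutation p = 0.429) and -17.03 (exact permutation p = 0.229), so the bait difference did not hold (chosen after seeing the data). The interquartile range of positions averaged 3126 to 3239 bp in the 6 groups.

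**Figure D4:**
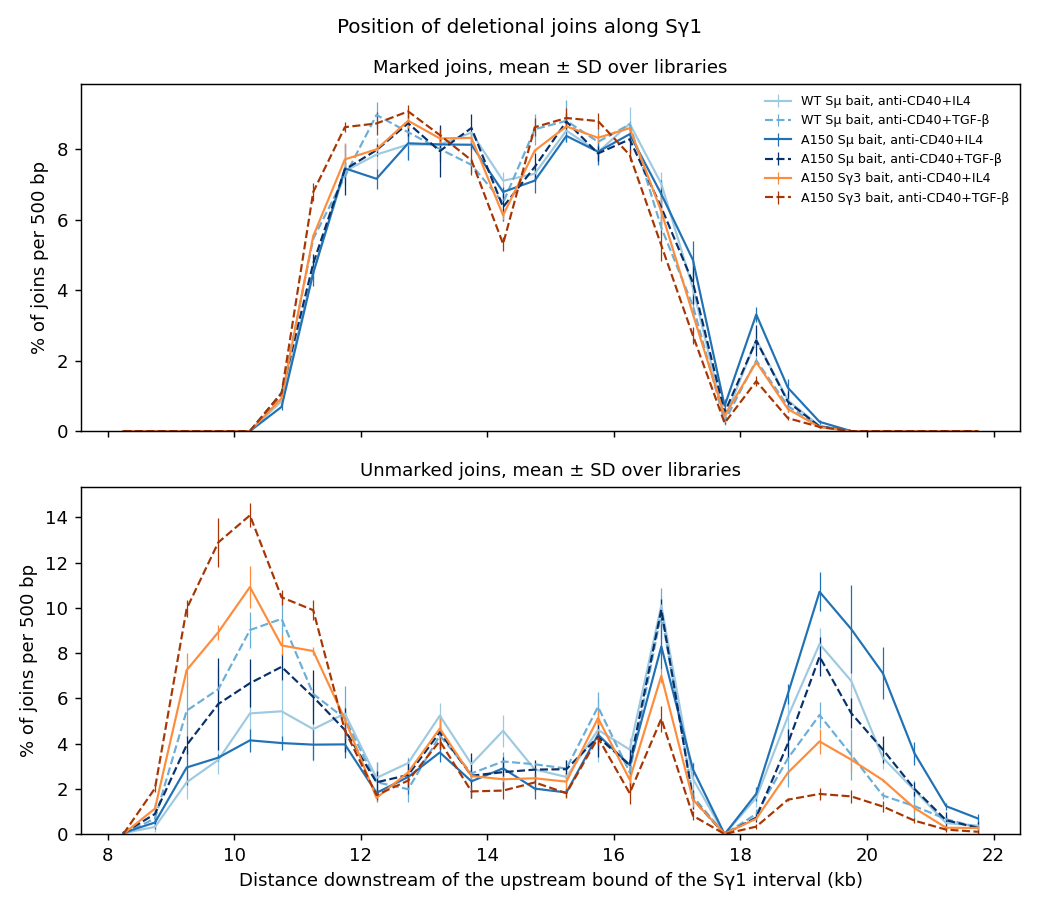
Percentage of joins per 500 bp (y axis) against the distance from the upstream bound of the interval (x axis, kb), as the mean over libraries with SD bars, for marked (upper) and unmarked joins (lower). Marked joins fill the plateau described in the text, and unmarked joins have maxima on both of its flanks and another inside it, near its downstream end.

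The share of joins with the mark lay between 81.4% and 90.1% in the 20 libraries once duplicates were left out. It was 85.4%, 85.1% and 86.6% in the A150 Sγ3 libraries and 88.0%, 86.4%, 88.1% and 87.3% in the A150 Sµ libraries for anti-CD40+IL4. For anti-CD40+TGF-β it was 83.2%, 81.4%, 83.4% and 84.3%, and 88.1%, 87.0% and 87.8%. The baits overlapped in the former and did not in the latter, where the difference was -4.51 percentage points (exact permutation p = 0.0286). Counting unmarked joins of the window alone, it was -1.29 (exact permutation p = 0.0286). With duplicates counted, the bait differences were -1.13 (p = 0.229) and -2.995 percentage points (exact permutation p = 0.0571, adjusted p = 0.0619). WT Sµ libraries had 90.01%, 90.1% and 89.5%, and 88.5%, 88.4% and 88.0%, and the A150-WT difference was -1.55 percentage points without duplicates (exact permutation p = 0.00286, not adjusted) and -0.41 with them (p = 0.364, adjusted p = 0.818). As a share of all IgH junctions, marked joins averaged 70.7% and 69.6% in the WT Sµ groups and 56.2% and 58.6% in the A150 Sµ groups (anti-CD40+IL4 first). With unmarked joins of the window alone, the A150-WT difference was -0.436 without duplicates (exact permutation p = 0.05) and 0.175 with them (exact permutation p = 0.434). Prey length moved with the mark: joins with a prey under 50 bases carried it in 97.1% to 97.8% of cases in the 6 groups, and joins with a prey of 300 bases or more in 84.9% to 86.2%, duplicates left out and within the window. The joins were chosen by this mark, and marked and unmarked joins may have passed different filters. No conclusion is therefore drawn from the tests of the marked share.

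Duplicates made up 32.5% of the marked joins. They were 43.2%, 38.1%, 36.3% and 25.9% in the A150 Sµ libraries and 32.3%, 36.1% and 42.7% in the A150 Sγ3 libraries under anti-CD40+IL4. Under anti-CD40+TGF-β the Sµ libraries had 21.4%, 19.6% and 23.1%, and the Sγ3 libraries 24.1%, 27.2%, 25.2% and 29.5%. The anti-CD40+IL4 libraries, which were deeper, lay above the others in both baits, though not past 0.05 after adjustment (differences of -14.5 and -10.6 percentage points for anti-CD40+TGF-β minus anti-CD40+IL4, exact permutation p = 0.0571 and 0.0286, adjusted p = 0.267 and 0.0800). WT Sµ libraries had 20.9%, 33.2% and 32.8%, and 13.6%, 13.6% and 15.4%, with A150 7.06 percentage points higher (exact permutation p = 0.0314, adjusted p = 0.440). The part of depth was not tested.

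**Figure D5:**
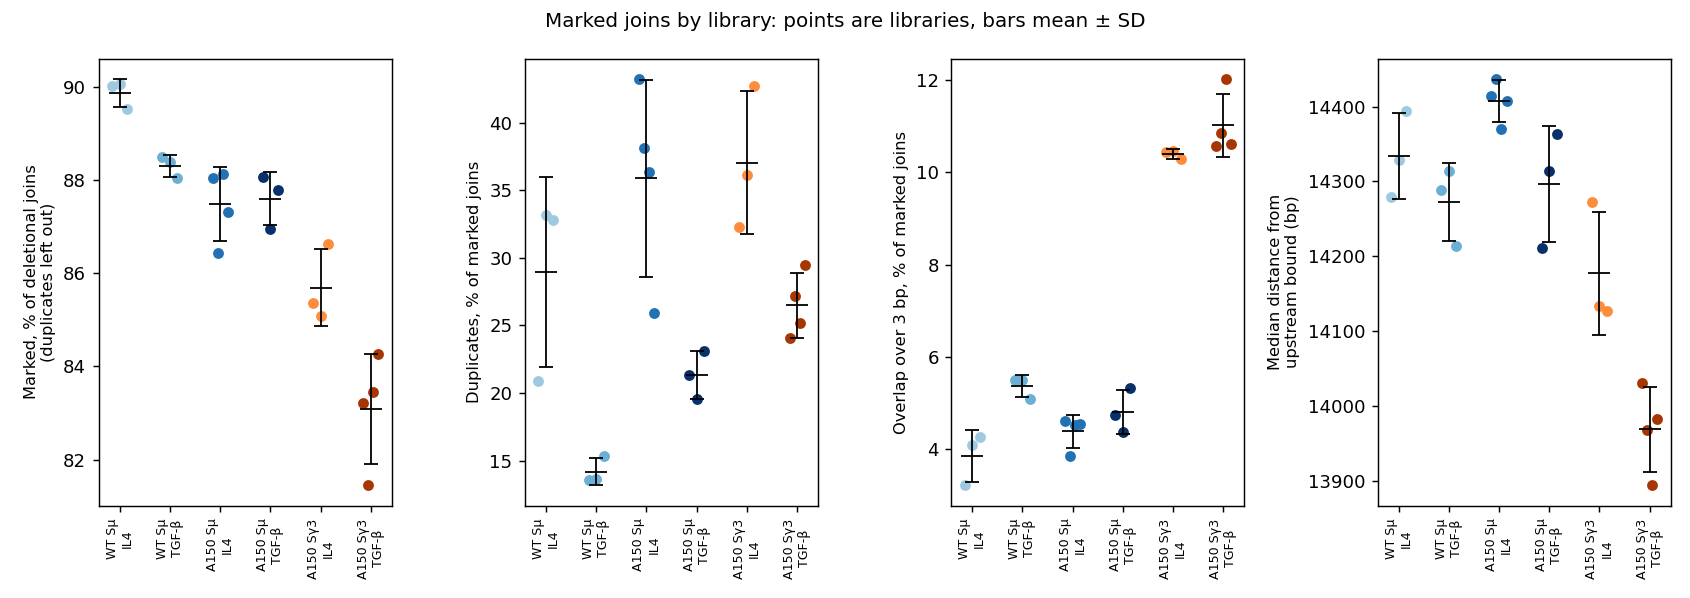
Each point is a library and bars are the mean ± SD: marked joins as a percentage of deletional joins without duplicates, duplicates as a percentage of marked joins, joins with overlaps of over 3 bases as a percentage, and the median distance from the upstream bound in bp (y axes), by group (x axes). Axes do not start at 0. Joins with overlaps of over 3 bases lie between 10.3% and 12.03% with the Sγ3 bait and between 3.21% and 5.51% with the Sµ bait.

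Marked and unmarked joins were compared within each library. Within the window, prey alignments of marked joins were shorter in all 13 Sµ libraries, with a mean difference of -69.04 bp, and in all 7 A150 Sγ3 libraries, with -38.9 bp (exact sign-flip permutation test, p = 0.000244 and 0.0156, adjusted p = 0.000814 and 0.0195). Prey length bears on whether a read maps to 1 place, so this difference describes the mark and is no result about the joins. Also within the window, the share of direct joins inside AGCT was lower among marked than among unmarked joins in all 7 Sγ3 libraries, 12.2% against 16.04% (exact permutation p = 0.0156, adjusted p = 0.0195). With the Sµ bait it was 8.94% against 8.51%, lower in 8 of 13 libraries and higher in 5 (exact permutation p = 0.622). Against all unmarked joins, wherever they lay in the interval, it was lower also with the Sµ bait, 8.94% against 10.7% in 12 of 13 libraries (exact permutation p = 0.00562, adjusted p = 0.0112), and 12.2% against 16.3% with the Sγ3 bait (exact permutation p = 0.0156). These AGCT comparisons counted duplicates, which only marked joins hold, and values without duplicates are not given here. Against all unmarked joins, overlaps of over 3 bases were more frequent among marked joins with the Sγ3 bait by 0.574 percentage points in 6 of 7 libraries (exact permutation p = 0.0313), and less frequent with the Sµ bait (-1.01) in 12 of 13 libraries (p = 0.00146). With duplicates left out, the Sγ3 difference turned to -0.819 percentage points (exact permutation p = 0.0313). Within the window the Sµ difference was -0.51 percentage points in 9 of 13 libraries (exact permutation p = 0.0339, adjusted p = 0.0485), and -0.4204 with duplicates also left out (exact permutation p = 0.0764). The Sγ3 difference there was 1.27 in 6 of 7 libraries (exact permutation p = 0.0313, adjusted p = 0.0347), and -0.119 with duplicates also left out (exact permutation p = 0.719), so neither passed 0.05 in that setting. Mismatch-free prey alignments were 42.9% of marked and 43.9% of unmarked joins. The mice are not of the strain of the reference genome, and the part of strain in the mismatches was not tested.

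WT cells gave few Sγ3 bait joins. The 6 libraries held 75 marked joins, 3 with overlaps of over 3 bases (4%, exact 95% interval 0.833% to 11.2%, counting error only) and 13 direct (17.3%, 9.57% to 27.8%). Of 63 distinct joins, 24 (38.1%, 26.1% to 51.2%) had the bait end, prey position and overlap of a join in the A150 Sγ3 libraries, where the 7 libraries shared 23.6% to 30.9% of their distinct joins with one another. The cause of the sharing was not tested.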

How the data were processed

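Deposited junction tables (1 row per bait-prey junction, unit other: coordinates and marks, with no counts or normalization) were used as the authors made them. Per the submitters' processing notes, reads were aligned to mm9 with Bowtie2, whose version is not given in the sources used here. Members and lists were chosen with earlier results of these data known. Overlap was the last bait base minus the first prey base of the read plus 1, whether or not bait and prey match there. Sγ1 and bait sequences were rebuilt from mismatch-free alignments (coverage of at least 5). The bins and positions named were the 3 bins of 1000 bp and 5 positions with the highest mean share, libraries weighted equally, among libraries with at least 100 joins. Each library gave 1 value per measure. Two-sided exact permutation tests compared libraries, sign-flip tests compared marked with unmarked joins within a library, and p-values were adjusted by Benjamini-Hochberg over the 13 or 14 measures of a comparison, 10 within libraries. The threshold was 0.05. Alternatives changed duplicates, interval, denominator, alignment lengths, depth, pairing and each library in turn. Same-numbered libraries did not deviate together throughout (correlations from -0.511 to 0.531), so no pairing was used. Wilson or exact intervals at 95% cover counting error only. Python 3.11.15, numpy 2.4.6, pandas 2.3.3, scipy 1.17.1 and matplotlib 3.10.9 were used, and the tests were tested on simulated data.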

Additional observations from a re-analysis of the deposited data

Results flagged for a closer look

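In the groups of 4 libraries, 28 sets of values were examined for a library far from the rest, and chance flags about 1 in 20. The share of joins with overlaps of over 3 bases was 3.86% in A150 Sµ library 2 for anti-CD40+IL4, apart from the other 3 on the low side. The share with overlaps of 1 to 3 bases was 44.1% in A150 Sγ3 library 3 for anti-CD40+TGF-β, also apart on the low side. In A150 cells the joins at the 10 most used positions of a library made up 2.28% (Sµ) and 1.099% (Sγ3) under anti-CD40+IL4. Under anti-CD40+TGF-β these shares were 1.92% and 1.36%. The change between stimulations differed between the baits by 0.618 percentage points (exact permutation test of the stimulation labels within each bait, 1225 arrangements, p = 0.0196, adjusted p = 0.255 over 13 measures, chosen after seeing the data), which did not pass after adjustment. The numbers of joins differ between these groups, and their part was not tested.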

How the results depend on the processing

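Values below are differences in percentage points, bp or positions that lost or gained the 0.05 threshold or turned sign, and the cause was not tested unless stated. Main values not printed above include stimulation differences of -1.61 (Sµ) and -3.48 (Sγ3) for marked share. For overlap >3 bp they were 0.419 and 0.621, and for bait break -0.0833 and -2.58. Bait differences for duplicate share were 1.14 (IL4) and 5.12 (TGF-β). A150-WT differences were 48.8 for median position and 0.0773 for AGCT. The marked-unmarked Sµ difference in median position was -735.5. Of these, only the Sγ3 marked share had an exact permutation p under 0.05 (0.0286, adjusted p = 0.0800). With duplicates left out, differences were -4.51 for marked share (baits TGF-β), -1.55 for marked share (A150-WT), 0.121 for marked share (stimulations Sµ), -2.596 for marked share (stimulations Sγ3), 0.866 for overlap >3 bp (stimulations Sγ3) and -0.819 for overlap >3 bp (marked-unmarked Sγ3). With identical joins counted once, differences were -4.34 for marked share (baits TGF-β), -1.45 for marked share (A150-WT), 0.00459 for overlap >3 bp (A150-WT), 0.00456 for marked share (stimulations Sµ), -2.68 for marked share (stimulations Sγ3), 0.8201 for overlap >3 bp (stimulations Sγ3) and -0.455 for overlap >3 bp (marked-unmarked Sγ3). In the core interval, differences were -2.26 for marked share (baits TGF-β), 0.482 for marked share (A150-WT), -1.903 for marked share (stimulations Sµ), 0.167 for bait break (stimulations Sµ) and 334 for median position (marked-unmarked Sµ). With all IgH junctions as the denominator, differences were -11.97 for marked share (baits TGF-β), -12.7 for marked share (A150-WT), 2.395 for marked share (stimulations Sµ) and -6.42 for marked share (stimulations Sγ3). With unmarked joins of the window only and without duplicates, differences were -1.29 for marked share (baits TGF-β), -0.436 for marked share (A150-WT) and -0.5704 for marked share (stimulations Sγ3). With same-numbered libraries paired (replicate block; the labels do not say what same-numbered libraries share, and 3 pairs cannot go below an exact p of 0.25), differences were -2.19 for duplicate share (baits IL4), 6.07 for overlap >3 bp (baits IL4), 6.35 for overlap >3 bp (baits TGF-β), -230 for median position (baits IL4), -332 for median position (baits TGF-β), -3.94 for marked share (stimulations Sγ3), -111 for median position (stimulations Sµ), -213 for median position (stimulations Sγ3), 2.33 for bait break (stimulations Sµ), 3.52 for AGCT (baits TGF-β), -0.0241 for AGCT (A150-WT), -4.68 for direct joins (baits IL4), -4.802 for direct joins (baits TGF-β) and 97.9 for distinct positions (baits TGF-β). With prey of at least 30 and bait of at least 50 bases, differences were 5.97 for duplicate share (baits TGF-β), -3.72 for marked share (stimulations Sγ3), -0.0347 for overlap >3 bp (stimulations Sµ), 0.75 for bait break (stimulations Sµ), 0.417 for bait break (stimulations Sγ3), 2.996 for AGCT (baits IL4) and -0.0327 for AGCT (A150-WT). With prey of 60 to under 120 bases, differences were 9.18 for duplicate share (baits TGF-β), -3.79 for marked share (stimulations Sγ3), -171 for median position (stimulations Sµ), -0.503 for overlap >3 bp (marked-unmarked Sµ), 5.06 for AGCT (baits TGF-β) and -0.739 for AGCT (A150-WT). With unmarked joins of the window only, the difference was 0.175 for marked share (A150-WT). With overlaps identical in bait and prey only, the difference was 0.381 for overlap >3 bp (A150-WT). With means in place of medians, the difference was 83.4 for median position (A150-WT). Against unmarked joins of the window without duplicates, differences were -0.4204 for overlap >3 bp (marked-unmarked Sµ), -0.119 for overlap >3 bp (marked-unmarked Sγ3) and -741 for median position (marked-unmarked Sµ). Against unmarked joins of the window, the difference was -697 for median position (marked-unmarked Sµ). At 1612 joins per library, the difference was 75.1 for distinct positions (baits IL4). At 2786 joins per library with duplicates left out, the difference was -17.03 for distinct positions (baits TGF-β). Leaving out each library in turn, ranges were -2.19 to 3.59 for duplicate share (baits IL4), 5.84 to 6.09 for overlap >3 bp (baits IL4), 5.88 to 6.47 for overlap >3 bp (baits TGF-β), -278 to -205 for median position (baits IL4), -370.1 to -294 for median position (baits TGF-β), 5.03 to 8.72 for duplicate share (A150-WT), -0.172 to 0.0981 for overlap >3 bp (A150-WT), 32.04 to 70.04 for median position (A150-WT), -3.94 to -2.78 for marked share (stimulations Sγ3), -145 to -68.8 for median position (stimulations Sµ), -234 to -161 for median position (stimulations Sγ3), -2 to 2.33 for bait break (stimulations Sµ), 0.407 to 0.702 for overlap >3 bp (marked-unmarked Sγ3), -898 to -596 for median position (marked-unmarked Sµ), 3.15 to 3.71 for AGCT (baits TGF-β), -0.396 to 0.402 for AGCT (A150-WT), -4.996 to -4.67 for direct joins (baits IL4), -5.22 to -3.99 for direct joins (baits TGF-β) and 77.2 to 119.4 for distinct positions (baits TGF-β). With 3 against 3 or 4 against 2 libraries no exact p under 0.05 is possible, so lost calls there follow from the number of libraries. The settings restricted to the window or to a prey length, those on identical overlaps and on positions without duplicates, and the AGCT measures, were chosen after seeing the data.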
